A study of Homo sapiens with 2 samples.

Results

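Genes of the thrombin and coagulation system were examined in HEC1A cells, a line established from a human endometrial adenocarcinoma, in 2 engineered states of EMP2, a small tetraspan membrane protein. The list held 10 genes: the thrombin receptor F2R and its relative F2RL1, tissue factor (F3), the fibrinogen chains FGA, FGB and FGG, the thrombin cofactor THBD, the tissue factor pathway inhibitors TFPI and TFPI2, and protein S (PROS1). Members were probe sets annotated with exactly 1 gene symbol equal to a listed name, and a gene was represented by the probe set with the highest mean signal over the arrays. This gave 20 probe sets for 9 genes, of 19775 genes with a probe set of 1 symbol. F2RL1 had no probe set named in the platform annotation used and is not analysed here. The list was chosen by genes whose log2 signals differed between these arrays, together with their partners, so the differences of F2R, FGB and F3 that led to it are given as a description.

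One array held total RNA of HEC1A cells labelled EMP2 overexpression and the other total RNA of HEC1A cells with a short hairpin RNA vector, labelled EMP2 knockdown. All cells were grown in McCoy's medium with 10% fetal bovine serum and were otherwise untreated. The labels give neither the vector that carries EMP2 nor whether a line is 1 clone or a pool, and an unmodified HEC1A line was not analysed here. With 1 array per group there is no replicate error and no test, and the number of arrays limits the precision. Each value is a deposited signal on a log2 scale, and each difference is overexpression minus knockdown.

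Coagulation starts when tissue factor, a transmembrane protein, binds factor VII and sets off the proteases that produce thrombin. Thrombin cuts fibrinogen, a protein of alpha, beta and gamma chains made mainly by hepatocytes, into fibrin, and it signals to cells by cutting the outer end of protease-activated receptors. The same protease is turned towards an anticoagulant role when it is bound by thrombomodulin, and many carcinomas make tissue factor and protease-activated receptors.

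On the brightest EMP2 probe set the signal was 12.25 in overexpression and 9.51 in knockdown, the direction of the labels. Its other 3 probe sets differed by 0.39, 0.23 and 0.00. A gene was counted where the higher of its values reached the brightness filter of 6.40, the median over both arrays of all probe sets with 1 symbol, and 12061 genes did. The brightest of 27 Bacillus subtilis control probe sets, for transcripts that human cells do not have, read 5.85, and a fold with a value at or under it is given as a lower bound. All 7 epithelial markers were above this level, with EPCAM at 13.13 in overexpression and 13.12 in knockdown. They did not all match between the arrays. CDH1 read 10.38 in overexpression and 9.31 in knockdown, 2.11-fold higher. KRT19, at 10.73 and 11.70, was 1.96-fold lower, and KRT8, at 10.55 and 11.32, was 1.70-fold lower. The rest of this list differed by less than 1.5-fold. PAX8, a factor of Mullerian epithelium, read 11.26 and 11.33. FOLR1 read 9.90 and 10.12, but its second probe set was at least 2-fold lower. MUC16, PGR, EMX2 and SOX17, the other Mullerian markers apart from FOLR1 and ESR1, were not above the control level.

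Of the 9 measured members 7 passed the brightness filter. F2R was at least 2-fold higher in overexpression, FGB, THBD and F3 were at least 2-fold lower, and TFPI, TFPI2 and PROS1 were under 2-fold. These are 1 higher and 3 lower members, beside 1.65% of the 12061 genes that reached 2-fold upwards and 1.53% that reached it downwards. At a threshold of 1.5-fold the members were again 1 higher and 3 lower, beside 4.97% and 4.15% of the genes. Since the members were listed from this same contrast, nothing is read from their count. The median difference of the 7 members was -0.12, beside 0.00 over all genes past the filter. By probe set, 14 of the 20 passed the filter, and 2-fold was reached upwards by 1 and downwards by 4.

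**Figure D1:**
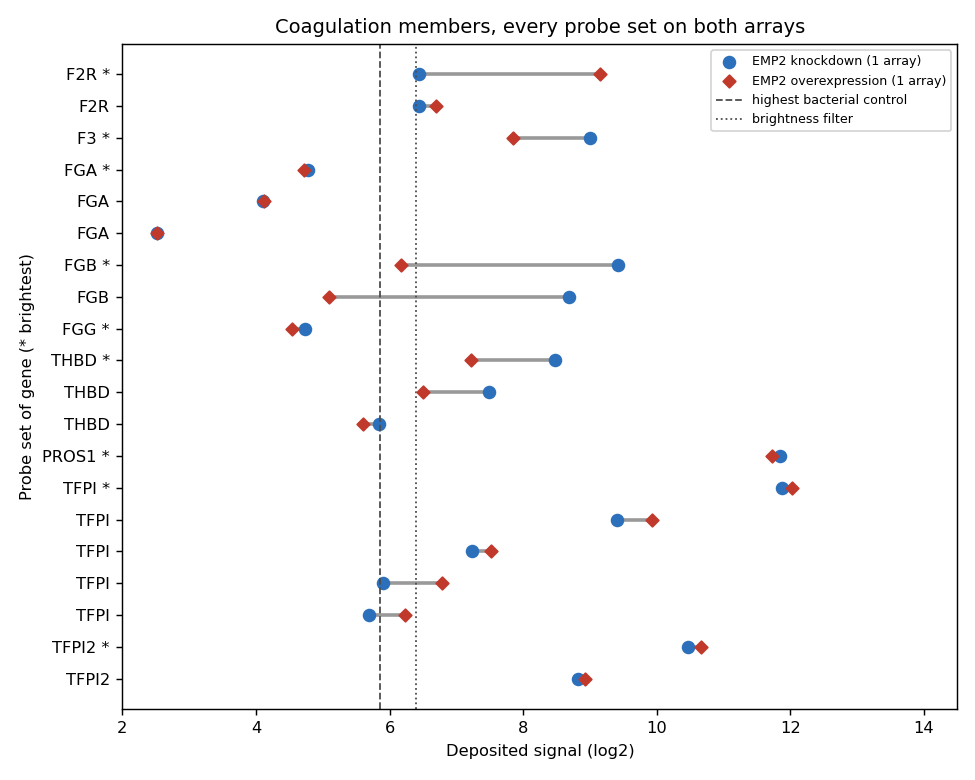
Deposited log2 signal of every probe set of the 9 measured genes (horizontal axis), with a circle for the knockdown array and a diamond for the overexpression array, 1 array each. The dashed line is the brightest bacterial control (5.85) and the dotted line the brightness filter (6.40). The FGB probe sets have the widest gaps, the F2R probe sets differ from each other, and FGA and FGG lie left of the control line on both arrays.

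The thrombin receptor F2R, also called PAR1, is a G protein-coupled receptor that thrombin activates by uncovering a tethered ligand. The signal of its brightest probe set was 9.14 in overexpression and 6.44 in knockdown. This difference of 2.71, or 6.53-fold, took rank 14 of the 12061 genes, counted from the most positive. In RNA of a whole culture, more cells with a transcript and more transcript per cell cannot be told apart, here and for the other members. The second F2R probe set did not share it. It read 6.70 in overexpression and 6.44 in knockdown, which is 1.20-fold. The knockdown array was thus low on both F2R probe sets, near the brightness filter, and the overexpression array was bright on 1 of them. That probe set carries the suffix x, which the manufacturer gives to probe sets whose probes may also match other transcripts. With the probe sets averaged the F2R difference was 1.48, and on the probe set without a suffix it was 0.26, so the 2-fold call rested on 1 probe set.

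The other receptors of the family were dim. F2RL2, or PAR3, which thrombin can cut, read 7.09 in overexpression and 5.86 in knockdown on one probe set, a 2.33-fold difference, with the knockdown value next to the control level. Its other probe set was identical on both arrays, at 2.98. F2RL3, or PAR4, which thrombin also cuts, was listed at 4.30 on both arrays and was not above the control level.

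Fibrinogen differed by chain. FGB, the beta chain, read 6.17 in overexpression and 9.41 in knockdown, a 9.48-fold lower signal at rank 14 from the bottom of the 12061 genes. Its second probe set had a signal of 5.10 in overexpression and 8.68 in knockdown, at least 7.13-fold lower. The FGB probe sets therefore pointed the same way with differences of -3.25 and -3.59, and the knockdown array was the bright one in both.

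FGA, the alpha chain, had 3 probe sets, and none was above the control level on either array. They read 4.71 and 4.78, 4.12 and 4.10, and 2.53 and 2.53, in overexpression and knockdown in turn. FGG, the gamma chain, read 4.53 in overexpression and 4.73 in knockdown on its only probe set. The signal of the beta chain in the knockdown line was thus not accompanied by a signal above the controls from the chains with which it is assembled in liver. In RefSeq order the genes are neighbours, FGB, FGA and FGG, with no protein-coding gene listed between them.

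The 250 bases before the start of each fibrinogen gene are shown because these neighbours differed in signal while their promoters are known to share response elements in hepatocytes. In the fibrinogen lines the capitals mark GTTAAT, the core of a site for the hepatocyte factor HNF1, and CTGGGA, the core of the interleukin-6 response element, each searched on both strands. The sequences are those of RefSeq on GRCh38.p14, 5′ to 3′ on the gene's strand. FGB lies at chr4:154562730-154562979 on the plus strand, FGA at chr4:154590743-154590992 on the minus strand and FGG at chr4:154612657-154612906 on the minus strand.
FGB: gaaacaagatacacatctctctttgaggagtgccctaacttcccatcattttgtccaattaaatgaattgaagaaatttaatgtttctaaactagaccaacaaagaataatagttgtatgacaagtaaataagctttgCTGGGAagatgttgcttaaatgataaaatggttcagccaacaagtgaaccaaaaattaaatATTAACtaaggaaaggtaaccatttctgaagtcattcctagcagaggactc
FGA: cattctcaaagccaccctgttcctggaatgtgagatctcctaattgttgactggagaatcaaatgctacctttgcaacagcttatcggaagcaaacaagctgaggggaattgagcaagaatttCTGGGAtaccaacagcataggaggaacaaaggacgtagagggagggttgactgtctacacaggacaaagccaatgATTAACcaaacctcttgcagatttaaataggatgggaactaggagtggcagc
FGG: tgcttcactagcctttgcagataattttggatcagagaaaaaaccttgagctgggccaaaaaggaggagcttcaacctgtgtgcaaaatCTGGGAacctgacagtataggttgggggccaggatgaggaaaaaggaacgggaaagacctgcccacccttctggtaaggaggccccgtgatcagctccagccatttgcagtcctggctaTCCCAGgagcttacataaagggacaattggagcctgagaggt

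FGB and FGA each held 1 match of GTTAAT, with first bases at -51 and -52 relative to the start of the gene, and FGG held 0. All 3 windows held CTGGGA, with 1 match in FGB, 1 in FGA and 2 in FGG. Among 27305 windows of the same length, 6.22% held GTTAAT and 28.8% held CTGGGA on either strand. FGB, which was bright on one array, and FGA, which was not, each held GTTAAT and CTGGGA. Whether these letters bear on the signals was not tested. A match is a description of the letters and not of binding.

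Hepatocyte genes were measured beside fibrinogen. Of 8 hepatocyte markers 5 were not above the bacterial controls. Albumin (ALB) read 4.16 in overexpression and 4.23 in knockdown, and APOB read 5.04 and 4.95. Transthyretin (TTR), at 6.87 and 7.07, was the only marker of this list past the brightness filter. The summed log2 signal of the list was 44.2 in overexpression and 44.9 in knockdown, a sum made mostly of values at or near background, in which a difference could hardly be seen.

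Genes of the acute phase, which interleukin-6 raises in liver together with fibrinogen, and the factors that control fibrinogen were followed as a list of 22 genes. Of 17 measured, 12 passed the filter, 0 reached 2-fold upwards and 2 downwards, with a median of -0.15, beside 1.65% and 1.53% of all genes past the filter and their median of 0.00. LCN2, the siderophore-binding lipocalin 2, read 6.76 in overexpression and 9.68 in knockdown, 7.56-fold lower. SERPINA3, the protease inhibitor alpha-1-antichymotrypsin, read 6.04 in overexpression and 7.55 in knockdown, 2.86-fold lower. Each has 1 probe set, and both were bright on the same array as FGB. The other 10 members past the filter were under 2-fold. The complement protein C3 read 8.25 and 8.34 in overexpression and knockdown, and STAT3, the factor that acts below interleukin-6, read 10.32 and 10.31. Interleukin-6 itself (IL6) and the plasma proteins HP, LBP and CRP were not above the controls on either array.

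Tissue factor (F3) read 7.85 in overexpression and 9.01 in knockdown on its only probe set. The difference of -1.15, or 2.22-fold lower, was at rank 144 from the bottom of the genes past the filter. The 250 bases before F3 are shown as those of the other lower member in the promoter table, at chr1:94541760-94542009 on the minus strand of GRCh38.p14. Capitals mark TGANTCA, the AP-1 site, and GGGCGG, the box bound by SP1, each on both strands, which are known elements of this promoter.
F3: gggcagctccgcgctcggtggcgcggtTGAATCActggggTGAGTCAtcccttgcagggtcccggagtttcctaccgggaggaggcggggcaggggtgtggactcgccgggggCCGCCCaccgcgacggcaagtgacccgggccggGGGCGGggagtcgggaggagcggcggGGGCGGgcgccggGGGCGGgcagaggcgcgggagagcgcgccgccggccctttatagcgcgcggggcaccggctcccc

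F3 held 2 matches of TGANTCA, where 6.6% of the 27305 windows held at least 1, and 4 of GGGCGG, where 42.3% held at least 1. Its window was 78.0% G and C, against 33.2% in FGB, 45.2% in FGA, 50.8% in FGG and a median of 58.0% over all windows. Of the 10 listed genes 8 were found in the promoter table, and F2R and THBD were not among them. TFPI2 also held 1 match of TGANTCA, and it did not differ by 2-fold. A link between these matches and the signals was not tested.

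**Figure D2:**
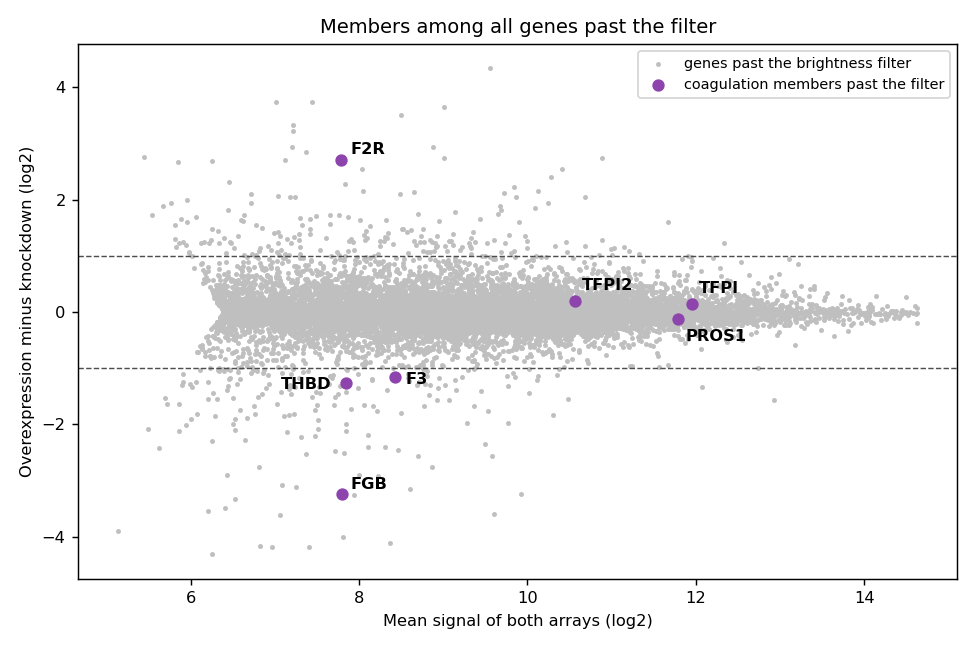
Difference in log2 signal (overexpression minus knockdown, vertical axis) against the mean log2 signal of both arrays (horizontal axis) for the 12061 genes past the brightness filter, in grey, with the 7 coagulation members past it in purple. Dashed lines mark 2-fold. F2R lies above the upper line, FGB, THBD and F3 lie below the lower line, and TFPI, TFPI2 and PROS1 lie within the grey band at higher signal.

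The inhibitors of tissue factor were bright on both arrays. TFPI, the Kunitz-type inhibitor of factor Xa and of the tissue factor complex, read 12.02 in overexpression and 11.88 in knockdown on its brightest probe set, 1.10-fold apart. All 5 TFPI probe sets were higher in overexpression, by 0.14 to 0.89. The largest of these differences came from a dim probe set that read 6.79 in overexpression and 5.90 in knockdown, 1.85-fold apart. One more read 9.93 and 9.40, a difference of 0.53, so the size of the TFPI difference depended on the probe set and none reached 2-fold. TFPI2, a matrix-bound relative that inhibits plasmin and trypsin, read 10.66 in overexpression and 10.46 in knockdown, and 8.92 and 8.82 on its other probe set. Over all genes past the filter the median absolute difference was 0.15, so TFPI (0.14) and TFPI2 (0.20) on their brightest probe sets differed about as much as a typical gene.

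The anticoagulant arm was split. THBD, thrombomodulin, binds thrombin on the cell surface and turns it towards protein C. The brightest of its probe sets had 7.21 in overexpression and 8.48 in knockdown, 2.41-fold lower at rank 124 from the bottom. The second read 6.50 in overexpression and 7.49 in knockdown, 1.98-fold lower, just short of the threshold, and the third, at 5.61 and 5.84, was not above the controls. All 3 THBD probe sets were brighter in knockdown. With the 3 averaged the difference was -0.83, which is under 2-fold, and THBD did not pass a filter at the 75th percentile (8.52).

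PROCR, the endothelial protein C receptor, which presents protein C to the thrombin and thrombomodulin complex, moved the other way. It read 9.75 in overexpression and 8.64 in knockdown on its only probe set, 2.15-fold higher. Protein C itself (PROC) was not above the controls, at 5.73 and 5.54. Protein S (PROS1), the cofactor of activated protein C, read 11.73 in overexpression and 11.85 in knockdown on its only probe set, a difference of -0.12. Thrombomodulin and the protein C receptor, which act on the same substrate, thus differed in opposite directions, while the difference of the cofactor was no larger than the median absolute difference of all genes past the filter.

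PROCR belongs to a list of 9 other inhibitors and anticoagulant proteins, of which 5 passed the filter, with 1 past 2-fold upwards, 0 downwards and a median of 0.03. The shares over all genes past the filter, 1.65% upwards and 1.53% downwards, stand beside this and each list count below. The heparin-binding serpins SERPINE2, or protease nexin-1, which inhibits thrombin, and SERPINA5, the protein C inhibitor, were 1.75-fold and 1.57-fold lower. They were chosen after their values were seen. SERPINE2 read 9.59 in overexpression and 10.40 in knockdown, and SERPINA5 read 6.82 and 7.47. Antithrombin (SERPINC1) read 6.09 and 6.14, which is under the brightness filter.

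Other coagulation factors were mostly at the level of the bacterial controls. Of 15 measured, 8 were not above the controls and 4 passed the filter, with a median of 0.03 and none at 2-fold. F8, the cofactor of factor IX, read 7.97 in overexpression and 7.19 in knockdown, 1.72-fold apart. F12, the contact factor, read 10.38 and 10.66, and F7, the partner of tissue factor, read 6.70 and 6.64. Prothrombin (F2) was listed at 6.32 on both arrays, under the filter, and F10 was not above the controls.

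In fibrinolysis, the removal of fibrin by plasmin, 6 of 9 measured genes passed the filter and none differed by 2-fold, with a median of 0.18. The urokinase gene PLAU read 10.71 in overexpression and 10.15 in knockdown, 1.47-fold apart, and its receptor PLAUR read 8.59 and 8.28. ANXA2, a surface docking protein for plasminogen, read 14.29 and 14.01. PLAT, the tissue plasminogen activator, peaked at 6.37 in overexpression, just under the filter, and was at least 1.43-fold above its knockdown value of 5.09. It was named after its values were seen. The plasminogen gene (PLG) was not above the controls.

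Gamma-carboxylation, the vitamin K-dependent modification that protein S and several clotting factors need, was measured by 6 genes. All passed the filter and none differed by 2-fold, with a median of -0.10. The largest differences were those of NQO1, a quinone reductase (0.31), CALU, an inhibitor of the carboxylase (-0.17), and the carboxylase GGCX (-0.16).

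Signalling below the thrombin receptor runs through G proteins of the Gq and G12/13 classes to phospholipase C beta and to RhoA. Of 17 genes measured here 15 passed the filter, 0 reached 2-fold upwards and 1 downwards, with a median of -0.04. Over all genes past the filter these shares were 1.65% and 1.53%, with a median of 0.00. PLCB1, a phospholipase C beta, read 8.86 in overexpression and 9.87 in knockdown, 2.01-fold lower. Its other 2 probe sets were not above the controls. Another phospholipase of the class, PLCB4, read 11.09 in overexpression and 10.30 in knockdown, 1.73-fold apart, and was named after its values were seen. The G protein subunit GNAQ differed by 0.23, GNA11 by -0.17, GNA12 by -0.42 and GNA13 by 0.04. RHOA read 13.52 and 13.56. Apart from the phospholipases, the measured genes of receptor signalling were within 1.5-fold.

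**Figure D3:**
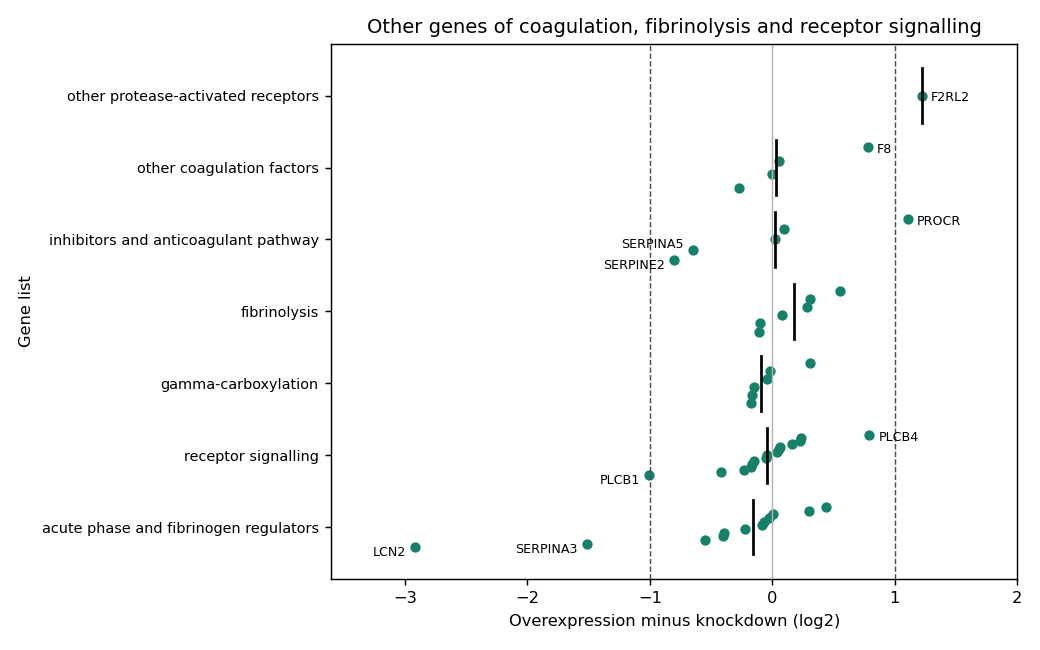
Difference in log2 signal (overexpression minus knockdown, horizontal axis) of each gene past the brightness filter in 7 related lists (vertical axis), 1 point per gene. Black bars are list medians and dashed lines mark 2-fold. F2RL2 and PROCR lie beyond the right-hand line, LCN2, SERPINA3 and PLCB1 beyond the left-hand line, and the other 44 genes lie between.

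Among protein-coding genes in RefSeq order the receptor genes lie next to each other, as F2RL2, F2R and F2RL1. The protein-coding genes around them were looked up after the F2R and F2RL2 values were seen. The order is that of the start coordinates, and overlap between genes was not examined. IQGAP2, whose gene comes before F2RL2 in this order, encodes a scaffold protein. It read 6.41 in overexpression and 4.68 in knockdown, at least 1.47-fold higher, on 1 of its 2 probe sets. The other read 2.74 and 2.92 and was not above the controls. The 3 consecutive genes IQGAP2, F2RL2 and F2R were brighter in overexpression on their brightest probe sets. Their other probe sets differed by -0.18, 0.00 and 0.26 in turn. A shared cause was not tested. POC5, further up, read 8.01 and 7.94, and AGGF1, on the far side, read 10.06 and 10.51. S100Z, CRHBP and SV2C were not above the controls. Around fibrinogen, the splicing factor gene PLRG1, next to FGB, read 11.12 and 11.23, and LRAT, next to FGG, read 4.95 and 5.48, not above the controls. FGB was the only gene of this stretch with a 2-fold difference among the 9 looked up.

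**Figure D4:**
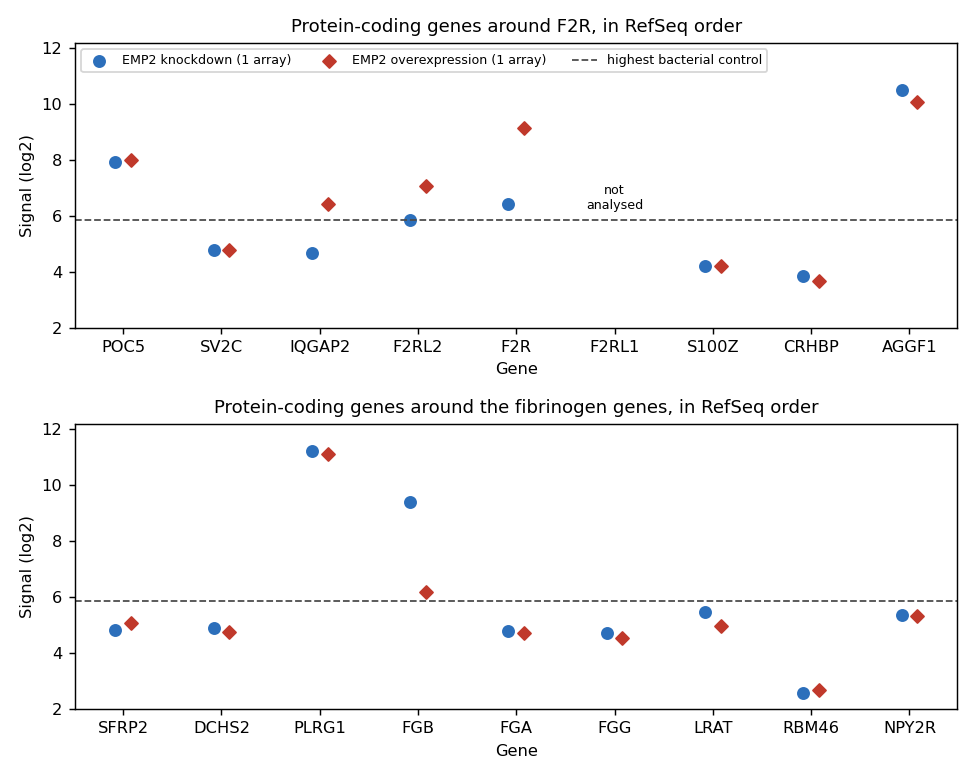
Deposited log2 signal (vertical axis) of the protein-coding genes around F2R (upper panel) and around the fibrinogen genes (lower panel), in RefSeq order along the horizontal axis and not to scale, on the brightest probe set of each gene. Circles are the knockdown array, diamonds the overexpression array and the dashed line the brightest bacterial control (5.85). IQGAP2, F2RL2 and F2R are brighter in overexpression, and of the fibrinogen genes FGB alone lies above the line, with 9.41 in knockdown.

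Together the 7 related lists held 75 measured genes, of which 49 passed the filter. Past 2-fold were F2RL2 and PROCR upwards (2 genes) and LCN2, SERPINA3 and PLCB1 downwards (3 genes), beside 1.65% and 1.53% of all genes past the filter. Endothelial cells carry F2R, THBD and PROCR in tissue, and platelets carry F2R, so the markers of both were measured too. PECAM1 read 6.82 and 6.62, CDH5 read 4.30 and 4.68 and KDR read 4.02 and 4.03 in overexpression and knockdown. Of 8 endothelial markers 5, and of 7 platelet markers 2, were not above the controls, and none of those past the filter differed by 2-fold. The summed log2 signal, again mostly of dim values, was 41.6 and 42.3 for the endothelial list and 42.1 and 42.1 for the platelet list.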

How the data were processed

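RNA of 2 HEC1A lines was hybridized to 1 Affymetrix array each. For each probe set the authors deposited a log2 value per array. No source states the log base, which was inferred from the range of 2.01 to 14.72. The submitters' processing notes name Partek 6.6. How background was corrected, arrays normalized and probes summarized is not given in these sources. Over 54675 probe sets the medians were 6.02 and 6.01, and the sorted values differed by at most 0.05, so a shift common to most genes would not be seen. In 14.6% of probe sets the arrays had the identical value. Per the labels' protocols a whole-transcript kit was used for labelling, but the array is of the 3' type.

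Probe sets were named from the platform annotation, in which 41097 had 1 symbol, 1801 several and 11777 none. Values were used as deposited, with Python 3.11.15 and pandas 2.3.3. A difference is overexpression minus knockdown, counted at 2-fold. Counting was tested on simulated data with large shifts, shared by all probe sets of a gene, and little noise. That checked the counting and not the calls made here. The genes named were the members, EMP2, and in each related list those at least 2-fold apart or otherwise up to 3 with the largest difference, with further list members, markers and neighbouring genes chosen after their values were seen. The members, the lists and the control level were chosen with earlier results of these data known. Scaling, the choice of probe set, the filter, the threshold and a floor were varied.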

Additional observations from a re-analysis of the deposited data

How the results depend on the processing

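The members were recomputed under 9 alternatives, of which 6 bear on a member's own difference. No member at least 2-fold apart changed sign. FGB, F3, FGA, FGG, TFPI2 and PROS1 stayed on their side of 2-fold and within 1.5-fold of their value under each of the 6. F2R was 1.48 with probe sets averaged and 0.26 on the brightest probe set without a suffix s or x, and 0 members were then at least 2-fold higher. THBD was -0.83 with probe sets averaged and -0.99 on the brightest probe set without a suffix, both under 2-fold. TFPI was 0.89 on the probe set with the largest difference past the filter. With probe sets averaged, 122 genes in all were at least 2-fold higher and 106 lower, and 1 gene of the related lists was higher. With the filter at the 75th percentile these were 116, 86 and 1. Under each of these settings 2 members were at least 2-fold lower in place of 3, FGB and F3 without THBD, and 2 genes of the related lists were lower in place of 3. At 1.5-fold, 600 genes were higher and 500 lower, and in the related lists 4 were higher and 5 lower. Fewer genes are tested with the higher filter, and a threshold of 1.5-fold also counts every gene past 2-fold. For the other settings the cause was not tested. Median centring moved the median of all genes by -0.01. Signal over background limits FGA, FGG and the lower values of FGB and F2RL2. No paired analysis was possible because each group has 1 array.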

Other observations

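Proteases other than thrombin that are known to cut protease-activated receptors were taken as a list of 12 after the data were seen. Of these, 8 passed the filter and none differed by 2-fold, with a median of 0.07. Matriptase (ST14) read 10.01 in overexpression and 9.81 in knockdown, prostasin (PRSS8) 7.24 and 6.74, and TMPRSS4 differed by -0.63. MMP1 and GZMA were not above the controls. SPINT1, the Kunitz-type inhibitor of matriptase, read 9.14 and 8.44, 1.63-fold higher in overexpression, with its other probe set at 7.19 and 6.99, and SPINT2 read 12.51 and 12.52.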
